A study of Mus musculus with 3 samples.

Results

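The T cells described here carried RNA of both Gzma, the granule protease granzyme A, and S1pr1, the receptor that lets lymphocytes leave tissue. They came from MC38 tumours, grown from a mouse colon carcinoma line, that were collected on day 15 after 5 days of treatment. Cells stained for CD3 were sorted and profiled with a droplet 3′ assay in 3 libraries, whose labels read PBS, mix and homo, and each group has 1 library. The study's title names interleukin-2 directed to LAG3, but what mix and homo contain, the strain, age and sex of the mice and the number of animals behind a library are not given in the labels. All 3 groups are tumour tissue, and no blood or lymphoid organ was sampled with them.

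Members were chosen by their own measured UMIs (counted RNA molecules). A barcode was a member when it passed 3 quality limits (500 genes or more, 1000 UMIs or more, mitochondrial UMIs below 10%) and had at least 1 UMI of Cd3d, Cd3e or Cd3g, at least 1 of S1pr1 and 1 of Gzma, and 0 of Tyrobp. The rule found 671 members among 27340 deposited barcodes, of which 25920 were within the limits and 24936 were T cells. PBS gave 250 of them, the mix library 106 and the homo library 315. The rule reads Gzma and S1pr1 in the same data, so those genes, the CD3 genes and Tyrobp are given below as a description and were left out of every count of genes.

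S1PR1 senses sphingosine-1-phosphate, a lipid that is abundant in blood and lymph and scarce inside tissue, so T cells with the receptor can follow it out of an organ. The transcription factor KLF2 switches on S1pr1, while KLF3 is a repressor of the same family and RASGRP2 activates RAP1, the switch that makes integrins sticky. T cells that settle in a tumour usually lose this programme as they take up inhibitory receptors, whereas effector cells that still move through the blood keep it together with granzyme A.

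Libraries held 10351 (PBS), 8461 (mix) and 8528 (homo) barcodes with 49179708 to 65336646 UMIs in each. T cells of homo were deeper, with a median of 7018 UMIs against 4837 in PBS and 5103 in mix, and 4.07% of homo barcodes failed the mitochondrial limit against 0.251% and 0.307%. Members differed more, with medians of 3571 UMIs in PBS, 5198.5 in mix and 9198 in homo. The member shares, the gene lists and the main genes compared between libraries are therefore also given with thinned cells. For the member shares the rule was applied after thinning. Between libraries, the thinned counts of listed genes and the thinned ratios of single genes keep members chosen at full depth. The part of depth in that choice was not tested for them. Sums of gene lists are also given with the rule applied after thinning. V gene shares and the classes of members are at full depth only. Between 203 and 234 barcodes of a library also occurred in another one, among them 3, 5 and 7 members in PBS, mix and homo. Removing the cells with the highest doublet scores took out 19, 15 and 38 members in PBS, mix and homo. These were 7.6%, 14.2% and 12.1% of members, against 8.02%, 6.49% and 6.23% of all barcodes within the limits. Members of mix and homo were thus removed more often than barcodes at large, and whether they were doublets was not tested.

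Members made up 2.58% of the T cells of PBS, with a 95% exact Clopper-Pearson interval of 2.27 to 2.92. They made up 1.35% of those of mix (interval 1.11 to 1.63) and 4.26% of those of homo (interval 3.81 to 4.75). The unthinned share was therefore highest in homo and lowest in mix. When every T cell with at least 2000 UMIs was thinned to 2000 UMIs at random before the rule was applied, the PBS share was 1.39% (interval 1.16 to 1.66), the mix share 0.496% (interval 0.348 to 0.687) and the homo share 1.37% (interval 1.11 to 1.67). Thinning left out 781, 668 and 498 T cells below that depth. At equal depth PBS and homo lay within each other's intervals and mix lay below both. Intervals cover counting error alone, and with 1 library in a group no difference between treatments could be tested.

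**Figure D1:**
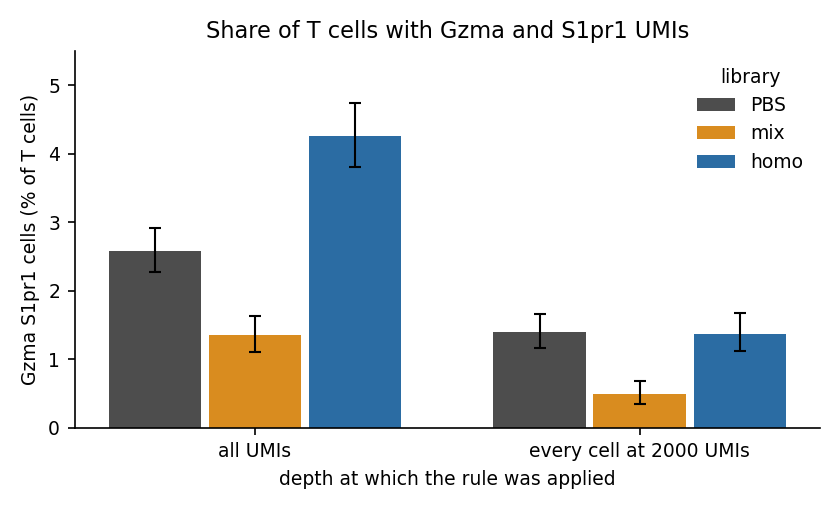
Share of T cells that carried both Gzma and S1pr1 UMIs (percent, vertical axis) in the PBS, mix and homo libraries, with all UMIs and with every cell at 2000 UMIs (horizontal axis); bars are shares and lines are 95% Clopper-Pearson intervals. The homo bar stands at 4.26% with all UMIs and at 1.37% at equal depth, next to 1.39% in PBS.

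Most members were CD8 cells, meaning at least 1 UMI of Cd8a or Cd8b1 and none of Cd4 or Foxp3. There were 211 such cells in PBS (84.4% of members), 84 in mix (79.2%) and 266 in homo (84.4%), or 2.83%, 1.47% and 4.01% of the CD8 T cells of each library. CD4 members without Foxp3 numbered 3, 6 and 4, or 0.940%, 1.89% and 5.80% of such CD4 cells. Members with Foxp3, the lineage factor of regulatory T cells, and no CD8 UMI numbered 2, 1 and 0. They were 2 of 832 Foxp3 cells in PBS (0.24%), 1 of 801 in mix (0.125%) and 0 of 123 in homo, which allows up to 2.95%. A further 57 members (16, 7 and 34) had CD8 and Foxp3 UMIs together (3.61%, 1.71% and 11.4% of cells with both), 22 had CD8 and Cd4 UMIs, and 15 had none of these genes.

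The small classes are described with no test, in the order PBS, mix, homo. The 13 CD4 members, with 53345 UMIs in all, had Klf2 at 825, 726 and 1418 CPM (UMIs of the gene scaled to a common total of the cells' UMIs, counts-per-million) against 609, 608 and 447 CPM in other CD4 cells. Ccl5, a chemokine of effector and memory T cells, was at 6785, 4401 and 11190 CPM against 2161, 1254 and 2123 CPM. The integrin subunit Itgb1 was at 642, 555 and 2154 CPM against 421, 348 and 595 CPM. These 3 genes were thus above the other CD4 cells in each library, with the largest ratio in homo. Gzmb was below them in each, at 1009, 2436 and 105 CPM against 3084, 2818 and 1110 CPM. Pdcd1 was above in PBS and mix and below in homo, at 825, 684 and 52.5 CPM against 355, 230 and 331 CPM. All these values rest on 3, 6 and 4 CD4 members with 10907, 23403 and 19035 UMIs. Low levels thus come from very few UMIs, and the directions and ratios per library are uncertain. In the 57 members with CD8 and Foxp3 together Klf2 was at 505, 155 and 196 CPM against 293, 239 and 110 CPM in other cells with both, and Foxp3 at 304, 438 and 189 CPM against 389, 372 and 198 CPM. Mix thus lay opposite to PBS and homo for both genes, but its values rest on 7 cells with 70847 UMIs in all. Whether mix differed beyond counting error was not tested. Their median depths of 7790, 10637 and 16367 UMIs in PBS, mix and homo lay above those of all members, and whether some of them were doublets was not tested. The 3 Foxp3 members held 10357 UMIs, with Foxp3 itself at 676 CPM against 791 CPM in other Foxp3 cells and 8 of their 9 Klf2 UMIs came from the 1 mix cell.

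Gzma was detected in a larger share of the CD8 cells with S1pr1 than of those without it, which describes the rule's genes and was not tested. With every cell at 2000 UMIs, Gzma was detected in 43.0% of CD8 cells with S1pr1 in PBS against 10.8% of CD8 cells without it. The shares were 18.9% against 6.19% in mix and 44.1% against 18.5% in homo. S1pr1 stood at 1 UMI in 129, 61 and 177 CD8 members and never passed 6 UMIs, so membership often rested on a single molecule. Gzma was more abundant, with medians of 5, 6 and 36.5 UMIs per CD8 member (PBS, mix, homo) and a highest value of 669. A total of 71, 28 and 183 CD8 members (33.6%, 33.3% and 68.8%) had 10 Gzma UMIs or more. For the level that free RNA can give, 39 myeloid barcodes (26, 9 and 4, with median depths of 7677, 5529 and 17485.5 UMIs) held a Gzma UMI in 3, 1 and 3 and an S1pr1 UMI in 2, 1 and 0, and 0 held both.

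The label's other 2 marker genes, Klf3 and Rasgrp2, are not part of the rule. They were named with earlier results of these data known, so their levels are a description and no independent check of the label. Klf3 stood at 49.7 CPM in the CD8 members of PBS, 81.9 in mix and 38.2 in homo, against 11.5, 12.5 and 5.18 CPM in the other CD8 cells, which numbered 7244, 5632 and 6374. Rasgrp2 stood at 101, 89.1 and 121 CPM against 21.1, 20.3 and 21.8 CPM. Both genes were higher in the members of all 3 libraries, by fitted log2 differences of 2.56 (SE 0.20) and 2.28 (SE 0.16). With the rule applied after thinning, Rasgrp2 was at 107, 150 and 111 CPM in members against 27.2, 24.7 and 25.3 CPM, and Klf3 at 29.9, 83.3 and 61.1 CPM against 15.3, 18.1 and 8.59 CPM. At full depth 32.2%, 32.1% and 45.1% of CD8 members had a Rasgrp2 UMI, and at 2000 UMIs 17.4%, 12.5% and 19.0% did, against 4.78%, 4.16% and 4.30% of other CD8 cells.

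The start regions of these genes are shown because KLF factors bind CACCC boxes, and Klf3 and Rasgrp2 are the genes that name these cells beside the rule. Sequences are RefSeq's on build GRCm38.p6, from 250 bases before to 50 after the annotated start, and 4 of the 5 genes looked for (Gzma, Klf2, Klf3, Rasgrp2, not S1pr1) were matched. Capitals mark CACCC or its reverse complement GGGTG, the only motif searched, on both strands.
Klf3, chr5:64803271-64803570, plus strand: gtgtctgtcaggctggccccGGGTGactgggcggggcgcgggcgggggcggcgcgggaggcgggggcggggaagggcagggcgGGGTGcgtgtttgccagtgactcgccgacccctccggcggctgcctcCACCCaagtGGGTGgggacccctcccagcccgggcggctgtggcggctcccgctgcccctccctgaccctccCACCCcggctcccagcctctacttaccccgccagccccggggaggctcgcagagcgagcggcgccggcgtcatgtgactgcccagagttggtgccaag
Rasgrp2, chr19:6399625-6399924, plus strand: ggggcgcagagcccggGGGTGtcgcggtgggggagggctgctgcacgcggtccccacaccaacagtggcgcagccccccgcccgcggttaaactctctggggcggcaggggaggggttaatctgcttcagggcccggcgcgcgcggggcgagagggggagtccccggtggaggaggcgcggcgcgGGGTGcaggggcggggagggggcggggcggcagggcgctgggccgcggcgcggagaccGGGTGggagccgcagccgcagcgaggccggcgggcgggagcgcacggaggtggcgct
Klf3 held 5 boxes and this Rasgrp2 start 3, while a further Rasgrp2 start held 1, Klf2 held 1 and Gzma held 1. A box was present in 57.5% of 32851 promoter windows of the same length, so the match is a description of these letters and not a binding site.

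The CD8 members were compared with all other CD8 cells of the same library, on summed UMIs and with the library as a block (edgeR's quasi-likelihood test, Benjamini-Hochberg adjusted over 12294 genes). Members had more RNA of 14 of 20 recirculation genes, and less of 14 of 19 exhaustion genes, of the granzymes C to G and of 8 of 16 glycolysis genes. Of the genes tested 320 were higher at adjusted p under 0.05 (2.6%) and 259 were lower (2.11%), 4.71% in either direction, and 307 and 259 of them moved the same way in all 3 libraries. The libraries differ in treatment and nothing in the labels says that they come from separate animals, so the p-values measure the spread of this difference over 3 libraries only. Without the block the counts were 70 and 29. Leaving out PBS gave 206 and 177 (1.66% and 1.43% of genes tested) and leaving out mix 259 and 200 (2.05% and 1.58%). Leaving out homo gave 576 and 552 (4.68% and 4.48%). List counts without a library, given below, stand beside these shares.

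Genes of recirculation led the members' side. Of 20 genes of T cell recirculation and lymph node homing, 14 rose and 0 fell, with a median log2 difference of 1.33 against -0.03 over all genes tested. The count holds Klf3 and Rasgrp2, which were named with earlier results of these data known. Klf2, the factor that drives this programme, stood at 756 CPM in PBS members, 628 in mix and 297 in homo. In other CD8 cells it stood at 216, 180 and 49.8 CPM, so that each library's members lay above its other cells, and homo was the lowest library in both populations. Its log2 difference was 2.04 (SE 0.16, edgeR adjusted p = 2.16e-08). At 2000 UMIs 66.7%, 60% and 40.3% of members had a Klf2 UMI against 24.7%, 22.0% and 8.30% of other CD8 cells, and at full depth 79.1%, 77.4% and 62.0% against 38.6%, 34.9% and 18.2%.

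Receptors of the same programme moved with it. Ccr7, the chemokine receptor that guides T cells into lymph nodes, was at 131, 156 and 21.1 CPM in PBS, mix and homo members against 44.3, 44.8 and 15.4 CPM (log2 difference 1.28, SE 0.20). The homo members were the lowest of the 3 libraries. S1pr4, a further receptor for sphingosine-1-phosphate, was at 165, 147 and 124 CPM against 58.3, 54.7 and 76.3 CPM (1.16), and S1pr5, the receptor used by effector and NK cells, stayed low at 4.52, 20 and 3.57 CPM against 0.67, 0.44 and 0.26 CPM. Of 16 genes of sphingosine-1-phosphate signalling 5 rose and 0 fell: S1pr5, Klf2, S1pr4, the G protein subunit Gna13 (0.96) and Cd69. CD69 is known to pull S1PR1 from the cell surface, and its RNA was at 374, 229 and 220 CPM in members against 163, 180 and 160 CPM (0.65).

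Some integrin genes were higher as well, while most genes of the list of integrin activation did not pass the test. Itgb7, the integrin subunit of gut-homing and many blood T cells, was at 441, 244 and 275 CPM against 73.8, 50.7 and 79.7 CPM (log2 difference 2.18, SE 0.16, edgeR adjusted p = 9.37e-09). Itgb1 was at 648, 382 and 370 CPM against 152, 140 and 227 CPM (1.38), and Itgax, the CD11c subunit that some effector CD8 cells take up, at 65.5, 47.3 and 43.2 CPM against 8.65, 6.26 and 6.52 CPM (2.82, SE 0.20). Itgax had the largest log2 difference of the 12 highest genes that were named. Of 18 genes of integrin activation by RAP1, 5 rose and 0 fell, namely Rasgrp2, Itgb7, Itgae, Itgb1 and the RAP1 adaptor Apbb1ip (0.75), and without homo 9 rose and 1 fell. Rasa3, which restrains RAS and RAP1, was at 153, 116 and 93.2 CPM against 27.6, 26.2 and 35.3 CPM (1.95). Itga4, the partner of both Itgb1 and Itgb7, had a log2 difference of 0.37 that did not pass the test.

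Also among the 12 highest were Cmah, which makes a sialic acid form (2.55), the small GTPase Arl5c (2.31), the cyclic nucleotide phosphodiesterase Pde2a (2.29), and the receptors Ccr2 and Klrg1. Ccr2, the receptor for monocyte chemokines, was at 195, 89.1 and 166 CPM against 28.7, 18.2 and 42.7 CPM (2.30, SE 0.17). Klrg1, an inhibitory receptor of long-activated effector cells, was at 40.7, 47.3 and 18.6 CPM against 8.77, 5.48 and 6.12 CPM (2.20, SE 0.27). With the rule applied after thinning to 2000 UMIs Klrg1 was at 17.1 CPM in PBS members (4 UMIs, interval 4.66 to 43.8) against 13.5 CPM, at 117 against 12.7 CPM in mix and at 27.8 against 8.98 CPM in homo. Of 22 genes of terminal effector and effector memory cells 8 rose and 1 fell, with a median of 0.055, and those that rose include the transcription factor Eomes (1.17), the annexin Anxa1 (1.18) and the receptor Cxcr3 (1.53). The gene that fell was the interleukin-2 receptor subunit Il2rb, at -0.44. The fractalkine receptor Cx3cr1, often used as a mark of circulating effector cells, was at 39.6, 67.3 and 58.9 CPM against 56.6, 44.2 and 55.7 CPM and did not pass the test.

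**Figure D2:**
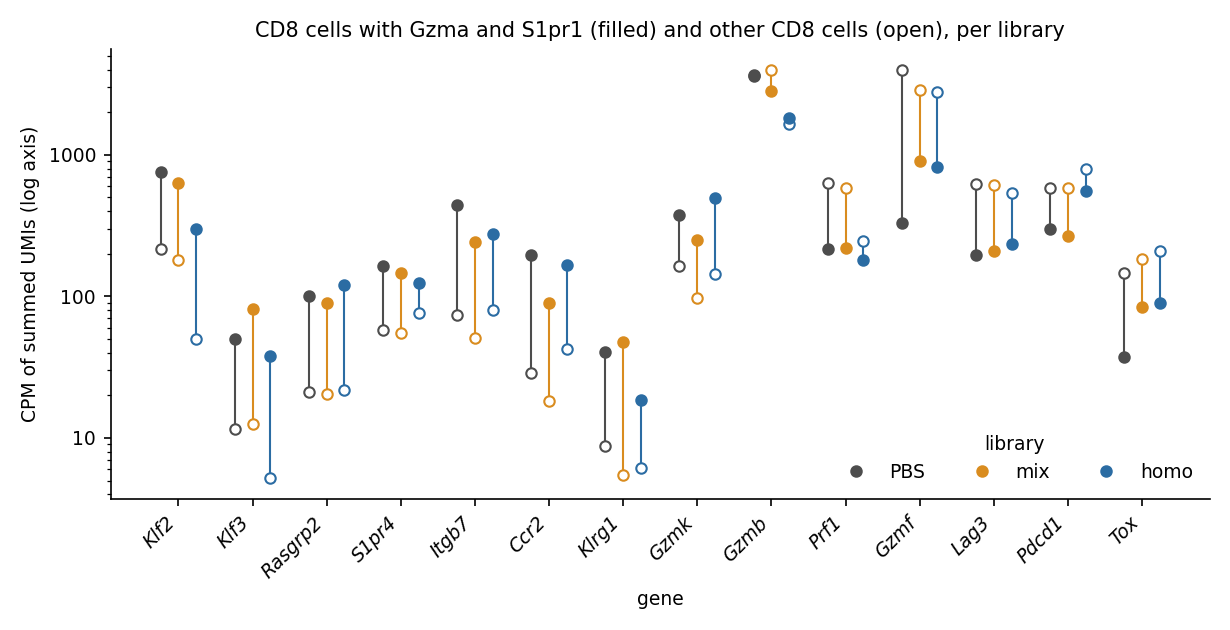
Level of 14 genes (CPM of summed UMIs, log axis) in CD8 cells with Gzma and S1pr1 (filled points) and in other CD8 cells (open points), with a line joining the pair of each library. Filled points lie above open ones in all 3 libraries from Klf2 to Gzmk, below them from Prf1 to Tox, and on both sides for Gzmb.

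Cytotoxic genes divided by family. Of 22 cytotoxic effector genes 3 rose and 8 fell, and without homo 5 rose. Gzmk, a granzyme of memory-like CD8 cells, was at 374, 251 and 493 CPM in members against 165, 97.4 and 144 CPM (1.42, SE 0.15). Ccl5 was higher by 1.90, reaching 10941, 7817 and 5882 CPM, and Gzmm by 2.78 at a mean level below 20 CPM. The granzymes encoded beside Gzmb in the genome were lower, with Gzmf at 330, 900 and 826 CPM against 3990, 2869 and 2791 CPM (-2.33, SE 0.24, edgeR adjusted p = 1.13e-06). Gzmc (-2.0), Gzmd (-2.26), Gzme (-2.37) and Gzmg (-3.90, at a mean level below 20 CPM) fell too. So did the pore protein Prf1, at 215, 218 and 182 CPM against 635, 581 and 247 CPM (-1.14). Gzmb itself was at 3577, 2838 and 1834 CPM against 3680, 3994 and 1648 CPM and did not pass the test (-0.15, edgeR adjusted p = 0.722). Granzymes D to G are closely similar copies whose UMIs the counting could divide among them, so their separate values are uncertain.

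Inhibitory receptors and exhaustion genes were lower in members. Of 19 such genes 0 rose and 14 fell, with a median of -0.87. Lag3, the receptor named in the study's title, was at 197, 209 and 235 CPM in members against 626, 610 and 536 CPM (log2 difference -1.48, SE 0.14, edgeR adjusted p = 4.33e-07). Pdcd1, which encodes PD-1, was at 301, 267 and 555 CPM against 581, 583 and 788 CPM (-0.87), Havcr2, which encodes TIM-3, at 92.7, 85.5 and 142 CPM against 200, 182 and 171 CPM (-0.79), and the exhaustion factor Tox at 37.3, 83.7 and 89.9 CPM against 145, 184 and 210 CPM (-1.42). At 2000 UMIs a Lag3 UMI was found in 16.4%, 16.2% and 30.4% of members against 58.4%, 60.8% and 59.3% of other CD8 cells, and at full depth in 24.2%, 31% and 65.0% against 76.3%, 79.4% and 83.6%. Members were therefore lower in Lag3 and Pdcd1 but far from empty of them. With edgeR 0 of the 19 genes rose also at unadjusted p under 0.05, where 17 fell, and DESeq2 gave 0 and 13 adjusted calls. Over all 12294 genes 844 rose and 921 fell at unadjusted p under 0.05 by edgeR. DESeq2 gave 272 and 154 adjusted calls over all genes.

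Other genes among the 12 lowest were the osteopontin gene Spp1 (-2.07), the neuritin gene Nrn1 (-1.70), the calmodulin-binding Nrgn (-1.85), the serpins Serpinb9b (-2.08) and Serpine2 (-1.88), the glycine-cleaving Gldc (-2.11), Osgin1 (-1.80) and Srgap3 (-1.58). Of 16 glycolysis genes 0 rose and 8 fell, including Tpi1 (-1.09), Pgk1 (-0.88), Pgam1 (-0.72) and Gapdh (-0.61). That count was 2 without PBS, 3 without mix and 12 without homo. Of 20 genes induced by the T cell receptor 2 rose and 6 fell, with the transcription factor Irf8 at -1.58, the feedback gene Spry2 at -1.47 and the costimulatory receptors Tnfrsf4 and Tnfrsf9 at -1.18 and -1.12; 0 rose without PBS and 5 without homo. By edgeR 12 glycolysis genes fell and 0 rose at unadjusted p under 0.05, beside 921 and 844 of all 12294 genes. After adjustment by DESeq2 4 fell and 0 rose, beside 154 and 272 of all genes.

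Residency genes did not move as a block. Of 17 tested 3 rose (1 without PBS) and 4 fell, with Zfp683, a factor of tissue-resident cells, at -1.35, Rgs16 at -1.29, Litaf at -1.03 and Rgs2 at -0.61. Cd69 and Nr4a1 (0.93) rose, and so did Itgae, the CD103 subunit, at 53.1 CPM in PBS members against 7.72 CPM, 3.64 against 5.51 CPM in mix and 11.4 against 2.24 CPM in homo. Itgae was thus higher in 2 of 3 libraries. Its call was lost when the rule was applied after thinning. Cxcr6 (-0.45) and Itga1 (-0.43) did not pass the test.

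The list of naive, memory and stem-like genes was higher in members with all UMIs, with 9 of 18 rising and 0 falling. Tcf7, a transcription factor that keeps T cells stem-like, was at 102, 215 and 62.5 CPM against 35.0, 39.5 and 40.6 CPM (1.48, SE 0.23). Lef1 (1.41), Id3 (1.58), Slamf6 (1.58) and Igfbp4 (2.27, at a mean level below 20 CPM) rose with it. This list depended on depth. With the rule applied after thinning to 2000 UMIs, which left 117, 30 and 90 CD8 members, 1 rose and 2 fell among 17. Tcf7 was then at 59.8, 117 and 111 CPM against 41.7, 52.1 and 52.4 CPM. In the same setting 8 recirculation genes rose and 0 fell, Klf2 stayed higher at 825, 1017 and 400 CPM against 262, 209 and 72.4 CPM, 13 exhaustion genes fell, and over all genes 153 rose and 212 fell.

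Lists with few calls were those of growth and cytokine signals. Of 30 proliferation genes 0 rose and 0 fell by edgeR or DESeq2, and 1 rose and 1 fell at unadjusted p under 0.05 by edgeR, but without the homo library 9 fell. Mki67 was at 36.2 and 63.7 CPM in PBS and mix members and 168 in homo, against 65.2, 59.1 and 96.3 CPM. With the rule applied after thinning, homo Mki67 was at 61.1 CPM in members against 74.1 CPM in other CD8 cells. The median of the 30 genes was then -0.30, against 0.058 with all UMIs. Of 20 interleukin-2 receptor and STAT5 target genes 3 rose (Socs3 1.13, Socs2 0.93, Pim1 0.88) and 2 fell (Jak3 -0.56, Il2rb -0.44, edgeR adjusted p = 0.0499 for the last), where 0 fell without PBS or without mix. Of 23 interferon-stimulated genes 3 rose (Oasl2 1.37, Iigp1 1.11, Gbp2 1.01) and Ifi27l2a fell (-0.75), and without homo 14 rose and 1 fell. Of 24 immediate early and heat shock genes 4 rose, among them Zfp36 (0.90) and Fos (0.62), 0 fell, and edgeR gave 7 and 3 at unadjusted p under 0.05. Without PBS 1 rose and 1 fell on that list, and without homo 8 rose. Over all genes tested 4.68% rose and 4.48% fell without homo. At unadjusted p under 0.05 by edgeR 844 and 921 of all 12294 genes rose and fell.

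Markers of other cell types were set beside these results, and their part in them was not tested. Fibroblast, platelet and red cell genes were at 0 in all 3 libraries, and 5 neutrophil genes summed to at most 1.13 CPM. Of 10 macrophage and monocyte genes 6, 8 and 3 were at 0, Csf1r and Adgre1 in every library, and the sum of 870, 1235 and 1282 CPM was almost all Plac8 with Cd68 next, Plac8 being a gene that activated T cells also use. Of 9 NK cell genes 5, 5 and 6 were detected, with sums of 201, 417 and 362 CPM against 478, 529 and 553 CPM in other CD8 cells, and Klra4 and Klra8 at 0. Dendritic cell genes summed to 374, 355 and 321 CPM against 302, 288 and 338 CPM, with H2-Aa at 0 and with Itgax and Ccr7 on the list. Regulatory T cell genes, of which Foxp3 is at 0 by the gate, summed to 541, 502 and 519 CPM against 961, 892 and 658 CPM. Of the B cell genes Ms4a1 was at 0 in the members of all 3 libraries, and the sum was 41.8, 87.3 and 49.6 CPM against 20.4, 28.1 and 16.5 CPM. Most of it was Ighm, at 37.3, 83.7 and 36.4 CPM against 17.3, 25.3 and 14.6 CPM (log2 difference 1.36, edgeR adjusted p = 5.3e-05). Endothelial genes summed to 20.3, 25.5 and 23.9 CPM against 10.8, 12.7 and 20.1 CPM, with Cdh5, Kdr, Cldn5 and Tie1 at 0 and Pecam1, which T cells also use, as nearly all of it (0.66, edgeR adjusted p = 0.168).

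To separate the share of each rule gene, members were set against CD8 cells with Gzma only (929, 480 and 1427 cells). Of 9713 genes 224 were higher in members (2.31%) and 186 lower (1.91%), 4.22% in either direction. Without the library block the counts were 4 and 2 and with DESeq2 92 and 77, and without homo 297 genes fell. Recirculation genes again rose, 15 of 20 with 0 falling and a median of 1.06, with Tcf7 at 2.01 over 30.8, 43.2 and 15.8 CPM in the cells with Gzma only, Ccr7 at 1.90 and Klf2 at 1.76. Of 22 cytotoxic genes 2 rose and 11 fell, with Gzmb at -0.80 below 6354, 6452 and 2452 CPM, Ifng at -0.79 and Nkg7 at -0.39. Of 19 exhaustion genes 13 fell and 0 rose. Gzma-bearing CD8 cells with S1pr1 thus had less granzyme B, perforin and Lag3 (-1.31) than those without it, while Gzmk did not pass the test (0.26).

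Against CD8 cells with S1pr1 only (282, 258 and 263 cells) fewer genes passed the test, with effector genes among the higher and naive genes among the lower. Of 8632 genes 29 were higher (0.336%) and 19 lower (0.22%), 0.556% in either direction. Of 21 terminal effector genes 7 rose and 0 fell, led by Klrg1 (2.42), Ccr2 (1.81), Anxa1 (1.76) and Itgb1 (1.06), and of 21 cytotoxic genes 3 rose and 0 fell, namely Gzmk (1.84), Ccl5 (1.62) and Gzmb (1.11). Of 18 naive and memory genes 0 rose and 6 fell, with Dapl1, a gene of naive T cells, at -2.54 and Tcf7 at -1.30 below 282, 314 and 218 CPM. Of 19 recirculation genes 1 rose, Itgb1, and 3 fell, among them Tcf7 and Lef1 (-0.86), and of 16 residency genes Nr4a1 (1.44) and Rgs1 (0.84) rose. Klf2 (0.33), Klf3 (-0.19) and Rasgrp2 (0.75) did not pass the test. With thinned cells the counts were 85 and 93, near the 100 and 110 that thinning gave against cells with Gzma only. The counts were 17 and 7 with DESeq2, 0 and 0 with edgeR without the block, where 257 and 256 genes had an unadjusted p under 0.05, 65 and 35 without mix and 283 and 211 without homo.

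How members differ among themselves was described by their Gzma UMIs, among CD8 cells with S1pr1. Cells with 0 Gzma UMIs are just outside the rule and cells with 1 are just inside it. Tcf7 was at 282 CPM outside and 167 CPM inside in PBS, 314 and 384 in mix and 218 and 396 in homo, and in cells with 10 Gzma UMIs or more it was at 48.0, 143 and 27.7 CPM. Tcf7 was thus lower in the cells with the most Gzma than in those on either side of the threshold. Tcf7 in mix was lower in the bin of 2 to 4 UMIs (89.8 CPM) than in the last one.

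Gzmk and Klrg1 ran the other way along the same range. Gzmk went from 95.1 CPM at 0 Gzma UMIs to 486 at 10 or more in PBS, from 75.1 to 419 in mix and from 138 to 574 in homo. Klrg1 was at 7.71, 0.729 and 7.58 CPM at 0 and at 96.0, 100.1 and 21.9 CPM at 10 or more. Klf2 and Rasgrp2 did not decline with Gzma, with Klf2 at 621, 636 and 172 CPM at 0 and 720, 896 and 304 CPM at 10 or more, and Rasgrp2 at 64.3, 89.6 and 43.6 CPM at 0 and 138, 129 and 141 CPM at 10 or more. The bins of 2 to 4 and 5 to 9 UMIs in mix and of 5 to 9 in homo held 15, 18 and 15 cells for each of these genes, and their values are uncertain.

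**Figure D3:**
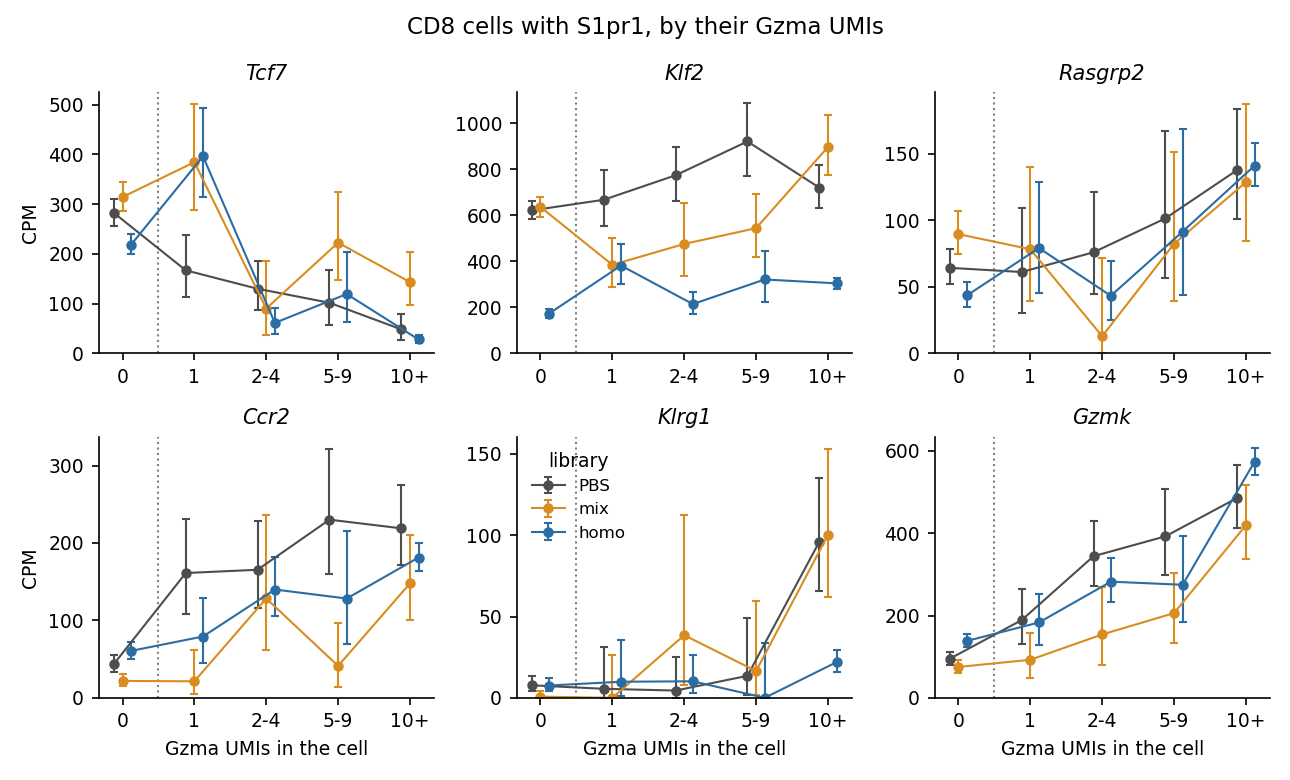
Level of 6 genes (CPM of summed UMIs, vertical axes) in CD8 cells with S1pr1, by the Gzma UMIs of the cell (horizontal axes) in each library, with 95% exact Poisson intervals; the dotted line marks the rule's threshold. Tcf7 is lowest at 10 or more Gzma UMIs in PBS and homo, at 48.0 and 27.7 CPM, and Gzmk is highest there in each.

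The S1pr1 threshold was described in the same way, among CD8 cells with Gzma. Klf2 was at 309, 233 and 51.6 CPM in cells with 0 S1pr1 UMIs, just outside the rule, and at 784, 635 and 258 CPM in cells with 1 S1pr1 UMI. In cells with 2 or more it was at 717, 613 and 364 CPM. Lag3 was at 584, 526 and 496 CPM outside, at 197, 234 and 276 CPM at 1 UMI and at 197, 159 and 167 CPM at 2 or more. For both genes the larger step lay between 0 and 1 UMI in all 3 libraries.

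Members with and without a Pdcd1 UMI also differed in other genes, given as a description because the split reads the same cells. Of the CD8 members 67, 31 and 173 had Pdcd1, with median depths of 3973, 6741 and 11058 UMIs, and 144, 53 and 93 had none, with 3232, 5027 and 6267 UMIs. Lag3 was at 408, 420 and 290 CPM with Pdcd1 and at 61.2, 23.9 and 44.5 CPM without it. Tcf7 was at 49.1, 163 and 22.6 CPM with it and at 135, 260 and 200 CPM without. Klf2 was at 725, 439 and 220 CPM with it and at 776, 793 and 563 CPM without. Deeper cells are more likely to show a Pdcd1 UMI, and the part of depth in this split was not tested.

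CD8 members of the treated libraries were then set against those of PBS, by the ratio of CPM with an exact 95% counting interval, for genes at 50 CPM or more in either library. Homo members had more RNA of the cell cycle and less of interferon, heat shock and stress genes than PBS members. Of 3241 genes 105 had a homo level 2-fold or more above that of PBS (3.24%) and 193 a level as far below it (5.95%). For the same genes in other CD8 cells the counts were 18 (0.555%) and 46 (1.42%), and 12 (0.37%) and 33 (1.02%) passed in both populations. The members' sums hold fewer UMIs, 884918 in PBS and 2801593 in homo, so their ratios vary more by counting. With cells thinned to 2000 UMIs 129 genes were higher and 251 lower.

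Lists were counted over every listed gene with a UMI in either library, since a minimum level would admit genes through the library where they are high. Of 30 proliferation genes, 21 differed by 2-fold or more toward homo members and 0 toward PBS members, with a median log2 ratio of 1.41 against 0.29 in other CD8 cells. Over all 14269 genes with a UMI 22.9% were as far higher and 11.9% as far lower, with a median of 0.062. With thinned cells 16 of the 30 were higher and 0 lower, beside 20.5% and 16.6% of 12183 genes. Birc5, which encodes survivin of dividing cells, was at 215 CPM in homo and 27.1 in PBS (log2 ratio 2.98, interval 2.40 to 3.64), Ube2c, a mitotic ubiquitin enzyme, at 233 and 31.6 CPM (2.88), Ccnb2, a mitotic cyclin, at 138 and 17.0 CPM (3.03), and Mki67 at 168 and 36.2 CPM (2.21). In PBS 7 members held all the Birc5 UMIs and 15 the Mki67 UMIs, against 103 and 98 in homo. With thinned cells the log2 ratios were 3.57 for Birc5, 2.19 for Ube2c, 2.96 for Ccnb2 and 2.43 for Mki67. Summed over 30 genes the list was at 1974, 2218 and 4973 CPM in PBS, mix and homo members, and at 2476, 2370 and 3026 CPM in other CD8 cells. With the rule applied after thinning the members' sums were 1521, 1400 and 2811 CPM, a 1.85-fold difference of homo over PBS in place of 2.52-fold.

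Interferon-stimulated genes ran the other way, since 18 of 23 differed by 2-fold or more toward PBS members and 0 toward homo members, with a median of -1.47 against -0.38 in other CD8 cells. Ifit3, an antiviral effector, was at 151 CPM in homo and 890 in PBS (-2.56, interval -2.73 to -2.38), Oasl2 at 20.3 and 144 CPM (-2.82), and Isg15, a ubiquitin-like modifier, at 330 and 1422 CPM (-2.11). Ifitm1 lay apart from them at 4319 and 4542 CPM (-0.07). Outside this list Slfn5 (-2.70) and Ube2l6 (-2.75) were among the 6 genes with the clearest lower ratio. With thinned cells 20 of the 23 were lower and 0 higher, with Ifit3 at -2.17, Oasl2 at -2.83 and Isg15 at -1.93. Summed, the list was at 21063, 14811 and 11590 CPM in PBS, mix and homo members and at 13762, 15221 and 13968 CPM in other CD8 cells. With all UMIs, PBS members therefore stood above the other CD8 cells of their library and homo members below theirs. With the rule applied after thinning the members' sums were 22436, 13317 and 13950 CPM. The homo sum was then higher than with all UMIs, and the statement on homo members covers all UMIs only.

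Immediate early and heat shock genes were lower in homo members, 16 of 24 by at least 2-fold and 0 higher, with a median of -1.19 against -0.59 in other CD8 cells, and 11 were lower with thinned cells. The heat shock protein gene Hspa1b was at 21.8 CPM in homo and 281 in PBS (-3.69, interval -4.12 to -3.28), and Fos, a part of the AP-1 factor, at 121 and 376 CPM (-1.63). Of 20 interleukin-2 receptor and STAT5 target genes 0 were higher and 7 lower, with a median of -0.68 against -0.56 in other CD8 cells. At 2000 UMIs 0 were higher and 5 lower, with a median of -0.48 against -0.52, so the list moved about as far in other CD8 cells. Socs3, which damps cytokine signals, was at 16.8 and 84.8 CPM (-2.34). With thinned cells Hspa1b was at -3.98, Fos at -1.45 and Socs3 at -1.69. Klf2 was lower in homo members (-1.35, interval -1.49 to -1.20) and in other CD8 cells (-2.12), and Rasgrp2 lay between -0.07 and 0.62 around 0.27. Nrgn was higher, at 223 against 22.6 CPM (3.31), as was Pdcd1 (0.88, and 0.44 in other CD8 cells), and Gzmb was lower (-0.96). Pdcd1 differed within the PBS members, at 71.2 CPM in those with the T cell receptor gene Trbv31, described below, and 457 CPM in those with another such gene. Gzme and Spp1 were higher and Ccl1 lower in homo, but all PBS UMIs of Gzme and of Spp1 came from 1 cell each and 93.0% of those of Ccl1 from 1 cell.

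**Figure D4:**
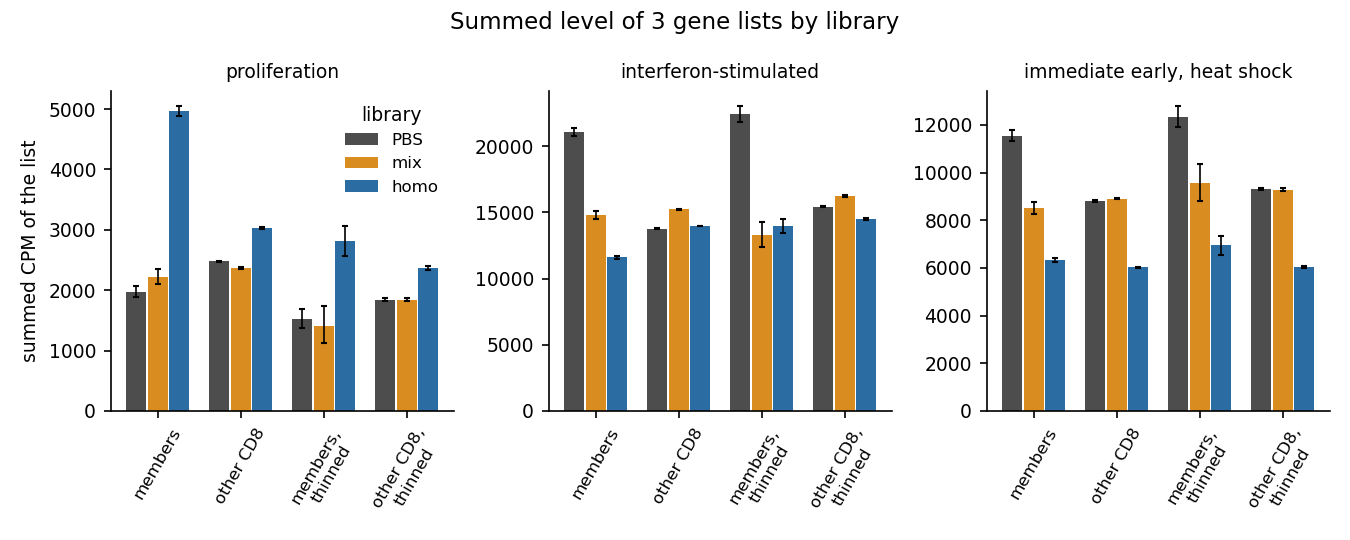
Summed level of 3 gene lists (CPM, vertical axes) in CD8 cells with Gzma and S1pr1 and in other CD8 cells of each library, with all UMIs and with the rule applied after thinning to 2000 UMIs; lines are 95% Poisson intervals. With all UMIs, proliferation genes are highest in the homo members at 4973 CPM and interferon-stimulated genes in the PBS members at 21063 CPM.

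Mix members differed from PBS members in fewer genes than homo members did when all UMIs were used. Of 3248 genes 44 were higher by 2-fold or more (1.35%) and 60 were lower by as much (1.85%), against 2 (0.0616%) and 4 (0.123%) in other CD8 cells, where 2 (0.0616%) and 3 (0.0924%) were the same genes. All 6 of the genes in other CD8 cells were T cell receptor V genes. With thinned cells the counts were 217 and 229, beside the 129 and 251 of homo over PBS. Those sums came from 80 members in mix, 195 in PBS and 263 in homo. The mix ratios thus vary more by counting, and the thinned counts cannot rank these comparisons. Over all 11328 genes with a UMI in thinned cells, 17.2% were 2-fold or more higher in mix than in PBS and 26.3% lower. Lower in mix were the interferon-induced membrane proteins Ifitm3, at 369 against 1423 CPM (-1.95), Ifitm1, at 1306 against 4542 CPM (-1.80), and Ifitm2, at 236 against 828 CPM (-1.81), and these were the 3 of 23 interferon-stimulated genes that passed 2-fold, with 0 higher, where 13.4% of 12750 genes with a UMI were as far higher and 16.6% lower. Itgae was at 3.64 against 53.1 CPM (-3.87, interval -6.96 to -1.93, 2 cells in mix), and Cd40lg, the ligand that T cells use to license antigen-presenting cells, at 5.46 against 52.0 CPM (-3.25). Higher in mix were Itga4, at 142 against 56.5 CPM (1.33), Tcf7 (1.08), Ehd4 (1.65) and Dgkh (1.49). Gzmf at 900 against 330 CPM and Fcer1g at 133 against 40.7 CPM rested on few cells, with 69.2% of the Gzmf UMIs of PBS and 41.1% of the Fcer1g UMIs of mix in 1 cell, as did Spp1 (58.1% of the mix UMIs) and Ccl1.

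Between the treated libraries, 107 of 3225 genes had a level 2-fold or more above that of mix members in homo members (3.32%) and 154 a level as far below (4.78%). In other CD8 cells the counts were 22 (0.682%) and 44 (1.36%), and 13 (0.403%) and 26 (0.806%) passed in both. Of 30 proliferation genes 21 were higher and 0 lower, and 17 and 1 with thinned cells. Of 23 interferon-stimulated genes 16 were lower while Ifitm1 (1.73) and Ifitm2 (2.07) were higher, but the sum of that list turned direction with the rule applied after thinning, at 13950 CPM in homo and 13317 in mix (log2 ratio 0.067). Of 14173 genes with a UMI 25.4% were as far higher and 11.9% lower. Nrgn (4.13), the histone gene Hist1h1b (3.62), Pclaf (2.07) and Ube2c (2.0) had the clearest higher ratios beside them. Lower were Oasl1 (-3.61), Oasl2 (-3.09), Hspa1b (-3.02), Socs3 (-2.65), Ifit3 (-2.19) and Ccr7, at 21.1 against 156 CPM (-2.89). Of 18 naive and memory genes 9 were lower by 2-fold or more and 0 higher, with Tcf7 at -1.78, and Klf2 was at -1.08. The 3 comparisons share libraries, and counts in one are not independent of those in another.

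T cell receptor genes set the PBS members apart. Trbv31, one β chain variable gene, was the leading V gene in 77 of 184 PBS CD8 members with any Trbv UMI (41.8%, 34.6 to 49.3). It led in 0 of 79 mix members, which allows up to 4.56%, and in 2 of 258 homo members (0.775%). In other CD8 cells of PBS it led in 311 of 6601 (4.71%), with 14.5% among cells with Gzma only, 5.08% among cells with S1pr1 only and 3.24% among cells with neither. The α chain gene Trav21-dv12 led in 59 of 75 Trbv31 members (78.7%) and in 16 of 84 members with another Trbv (19.0%), and in 137 of 279 other CD8 cells with Trbv31 (49.1%). A 3′ assay reads V genes in part and gives no junction sequence, so whether these cells are 1 clone was not tested.

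**Figure D5:**
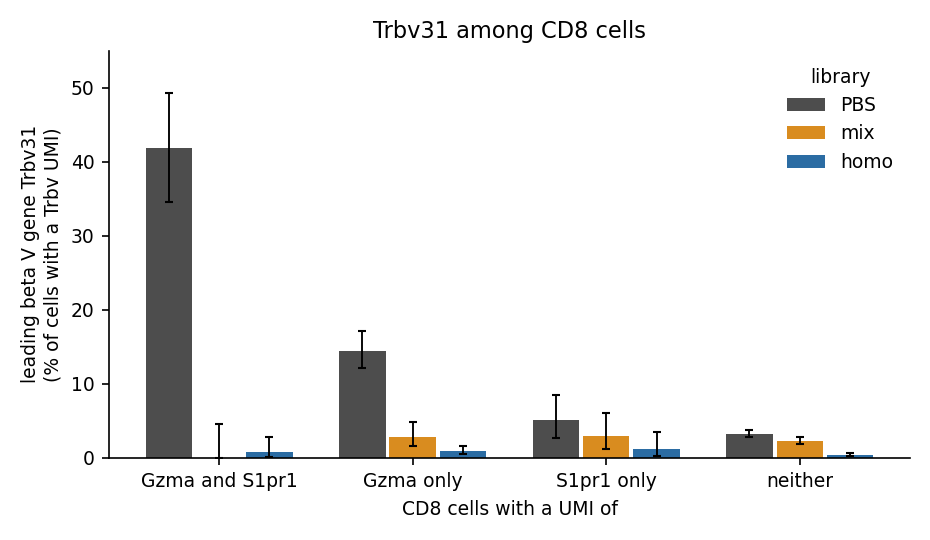
Share of CD8 cells with a Trbv UMI in which Trbv31 was the leading β chain V gene (percent, vertical axis), by whether the cell had Gzma, S1pr1, both or neither (horizontal axis) and by library, with 95% Clopper-Pearson intervals. PBS cells with both genes stand at 41.8%, and every other bar is at or below 14.5%.

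Trbv31 members of PBS differed from PBS members with another Trbv, as a description within 1 library. Of 3347 genes 146 were higher by 2-fold or more (4.36%) and 120 were lower by as much (3.59%). Anxa1 was at 317 against 97.6 CPM (log2 ratio 1.70, interval 1.18 to 2.23), Ifitm3 at 2660 against 773 CPM (1.78) and the lamin gene Lmna at 203 against 54.7 CPM (1.89). Tcf7 was at 32.1 against 148 CPM (-2.21), Pdcd1 at 71.2 against 457 CPM (-2.68) and Klf3 at 17.8 against 68.3 CPM (-1.94), and Klrg1 had 1 against 28 UMIs. Klf2 lay at 812 and 728 CPM, with an interval of -0.09 to 0.40 around 0.16. Ccl3 (-3.17) and Ccl4 (-2.03), chemokines of freshly triggered T cells, were lower too. The PBS levels in the library comparisons above, among them those of Pdcd1 and Ifitm3, include the Trbv31 members. Their part in the ratios of single genes was not tested.

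Leaving out PBS cells with Trbv31 kept 134 CD8 members there. The comparison with other CD8 cells then gave 337 higher and 286 lower genes, with 14 recirculation genes rising and 13 exhaustion genes falling. The PBS sum of interferon-stimulated genes was 19188 CPM and that of proliferation genes 1670 CPM without them. The member share of PBS T cells was 1.79% in place of 2.58%.

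The rule's demand for 0 Tyrobp UMIs left out a further group. Barcodes with CD3, Tyrobp, Gzma and S1pr1 numbered 11 of 242 barcodes with CD3 and Tyrobp in PBS (4.55%, 2.29 to 7.99), 3 of 168 in mix (1.79%) and 35 of 327 in homo (10.7%, 7.57 to 14.6). The shares are at full depth only. Tyrobp encodes an adaptor of NK cells and innate-like T cells. These barcodes had Klf2 at 666, 311 and 344 CPM against 756, 628 and 297 CPM in the CD8 members of the same library. Rasgrp2 was at 207, 0 and 124 CPM against 101, 89.1 and 121 CPM, and the mix values rest on 3 barcodes. Gzma and S1pr1 without any CD3 UMI were found together in 0 of 89, 0 of 92 and 0 of 66 barcodes.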

How the data were processed

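CD3-sorted cells of MC38 tumours were profiled by droplet 3′ sequencing in 3 libraries (PBS, mix, homo). The values are UMI counts per gene and barcode, deposited by the authors as filtered matrices of 32285 genes, not normalized. Per the file headers the matrices were written by Cell Ranger 7.1.0, while build mm39, Seurat 4.1.0 and an older Cell Ranger, 2.1.1, stand in the submitters' processing notes, and which was used for these files is not settled here. Promoter sequences are on GRCm38.p6 and no coordinates of the builds were mixed. Every column of per-sample values was used.

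From these deposited counts, barcodes with at least 500 genes, 1000 UMIs and under 10% mitochondrial UMIs were kept. No doublets were removed in the reported values; removing 0.8% of barcodes per 1000 kept, by Scrublet score (scanpy 1.11.5), was an alternative. UMIs of CD8 members, other CD8 cells and CD8 cells with 1 of the rule genes were summed per library and tested with edgeR 4.0.16 (R 4.3.3): TMM scaling, filterByExpr, quasi-likelihood test with the library as block, Benjamini-Hochberg over all genes tested, threshold 0.05. Log2 differences carry a standard error (SE) over 3 libraries. Libraries were compared by CPM ratios with exact conditional binomial intervals (95%), at 50 CPM or more and a 2-fold threshold, with no test since each group has 1 library. Shares carry Clopper-Pearson intervals and levels exact Poisson intervals. Member depth ranged from 1031 to 50797 UMIs. Sums were also simulated for the comparison with other CD8 cells (12100 genes), with the same spread (dispersion) for every gene and the same fold in all 3 libraries. In them 70% of genes raised 2-fold and 98% of those raised 4-fold were called. Of those lowered to 0.5-fold 52% were called and of those lowered to 0.25-fold 76.6%, with 3 false calls among 149. Measured differences varied between libraries, so these rates describe the simulated setting only.

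Genes named are the 12 highest and 12 lowest log2 differences (adjusted p under 0.05, same direction in 3 libraries, mean of at least 20 CPM), in library comparisons the 6 genes each way whose interval lies farthest from 0, fixed genes named in any case, and up to 4 per list; others are named for a count of 5 or fewer. A gene that met these rules is not reported here. Genes may be on several lists. The members and the gene lists were chosen with earlier results of these data known. Alternatives were DESeq2 1.42.0, no filter, no block, thinning to 2000 UMIs, other thresholds, and leaving out each library; leaving out Trbv31 cells, applying the rule after thinning and counting listed genes between libraries with no minimum level were added after seeing the data.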

Additional observations from a re-analysis of the deposited data

Results flagged for a closer look

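For 19 of 59 genes named in any comparison, the CD8 members stood above the other CD8 cells in one library and below them in another, with intervals of the log2 ratio clear of 0 on both sides. These differences were not tested, since each library is the only one of its treatment, and 0 of the 19 passed the test over the 3 libraries by edgeR. Many of the 19 had been named for their ratio between libraries, which bears on this pattern. Il7r, the interleukin-7 receptor, had a log2 ratio of 0.58 in PBS, 0.43 in mix and -0.37 in homo, a difference of 0.95 between PBS and homo and of 0.80 between mix and homo. Gzmb had -0.49 in mix and 0.15 in homo, a difference of -0.65. Cx3cr1 had -0.52 in PBS and 0.61 in mix, a difference of -1.12. Il2ra, the high-affinity interleukin-2 receptor subunit, had -0.42 in PBS, -0.88 in mix and 0.37 in homo, a difference of -0.79 between PBS and homo and of -1.25 between mix and homo.

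With all UMIs, genes of dividing cells were below the other CD8 cells in PBS or mix and above them in homo. The difference of PBS minus homo was -1.65 for Mki67 (-0.85 and 0.80), -2.33 for Birc5 (-1.43 and 0.90), -1.92 for Ccnb2 (-1.17 and 0.75), -1.88 for Ube2c (-1.27 and 0.62) and -2.07 for Hist1h1b. That of mix minus homo was -3.13 for Hist1h1b and -1.68 for Pclaf. With the rule applied after thinning, homo members had Mki67 at 61.1 CPM (interval 30.5 to 109) against 74.1 CPM in other CD8 cells. Top2a, also on the proliferation list, was then at 38.9 CPM (interval 15.6 to 80.1) against 64.1 CPM. The statement that homo members lay above their other CD8 cells thus covers all UMIs only.

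Interferon genes mostly lay the other way, with all UMIs. PBS minus homo was 1.94 for Ifit3 (1.32 and -0.62), 2.17 for Slfn5, 1.78 for Ube2l6 and 1.80 for Ifitm3, and mix minus homo was 1.45 for Ifit3, 1.90 for Slfn5 and 2.47 for Oasl1. PBS minus mix was 2.24 for Ifitm3 (1.43 and -0.81) and 1.80 for Ifitm2. Outside these groups Hspa1b had a difference of 1.83 between PBS and homo, Itga4 of -0.96 between PBS and mix and of -1.30 between PBS and homo, and Ccl1 of 4.2 between PBS and mix and 3.71 between PBS and homo, with nearly all its PBS UMIs in 1 cell.

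Outside the rule, 10.7% of homo barcodes with CD3 and Tyrobp held Gzma and S1pr1 together (interval 7.57 to 14.6). The share in PBS, the control library, was 4.55% (interval 2.29 to 7.99), and the intervals overlap. Both shares are at full depth only, T cells of homo were deeper, and the part of depth was not tested.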

How the results depend on the processing

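Each group has 1 library and members differ in depth between libraries. Without the library block, genes higher and lower in CD8 members numbered 70 and 29 against other CD8 cells, 4 and 2 against cells with Gzma only, and 0 and 0 against cells with S1pr1 only (257 and 256 at unadjusted p under 0.05 by edgeR). DESeq2 gave 154 lower genes against other CD8 cells, 92 and 77 against Gzma only, and 17 and 7 against S1pr1 only. With cells thinned the counts were 100 and 110 against Gzma only and 85 and 93 against S1pr1 only, and with the rule after thinning 153 genes were higher than in other CD8 cells. Leaving out 1 library gave 206 to 576 and 177 to 552 genes against other CD8 cells, 190 to 301 and 161 to 297 against Gzma only, and 29 to 283 and 15 to 211 against S1pr1 only. No paired analysis was possible because the labels give no replicate numbers that groups share and each group has 1 library.

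Member shares of T cells moved to 1.39%, 0.496% and 1.37% (PBS, mix, homo) with thinning before the rule, and to 2.01%, 0.942% and 3.79% with at least 2 Gzma UMIs, and PBS to 1.79% without Trbv31 cells. The CD8 share of members moved to 93.6% in PBS and 92.8% in homo with thinning. A minimum of 100 CPM gave 48 and 126 genes for homo over PBS, 15 and 25 for mix over PBS and 52 and 88 for homo over mix. Means of per-cell CPM gave 79 higher genes for mix over PBS. Thinned cells gave 217 and 229 for mix over PBS and 194 and 320 for homo over mix.

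Direction reversed in these cases, the cause of which was not tested. Against other CD8 cells they were Mki67 with thinned cells (-0.11) and with the rule after thinning (-1.04), Il2ra with at least 2 S1pr1 UMIs (0.0017), and Cx3cr1 without a filter (-0.022), without high Scrublet scores (-0.026) and with at least 2 S1pr1 UMIs (-0.050). Leaving out 1 library gave -0.022 (without PBS) to 0.48 for Il7r, -0.30 to 0.024 (without mix) for Gzmb, -0.20 (without mix) to 0.26 for Cx3cr1, which was also below 0 without homo, and -0.43 (without homo) to 0.51 for Mki67. Between libraries they were Lag3, homo over PBS without Trbv31 cells (-0.031), Tcf7, homo over PBS by per-cell means (0.10), Itga1, mix over PBS with thinned cells (0.22), the sum of interferon-stimulated genes, homo over mix with the rule after thinning (0.067), and that of proliferation genes, mix over PBS in the same setting (-0.12).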
